A study of Mus musculus with 30 samples.

Results

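KLF4 and KLF5 are Krüppel-like factors, and the regions described here are those where 1 of them was the only transcription factor listed. They are genomic intervals with identical coordinates that were present in exactly 1 of 9 peak lists, that list being the one for KLF4 or for KLF5. The members were chosen by this listing alone, so their number and their lack of other factors are descriptions and carry no test. Of 34724 intervals on chromosomes 1 to 19 and X, 4401 met the rule: 298 were KLF4-alone and 4103 were KLF5-alone. Alone refers to identical coordinates only. Another interval, of any list including their own, overlapped 22 KLF4-alone and 221 KLF5-alone intervals. No interval of another list lay within 1 kb, midpoint to midpoint, of 257 KLF4-alone and 3422 KLF5-alone intervals.

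The lists came from ChIP-seq in mouse 3T3-L1 preadipocytes, fibroblast-like cells of an established line that can form adipocytes, with no genetic modification named for the 9 samples used. Every sample was taken 4 h after post-confluent cells were given insulin (1 μg/mL), the phosphodiesterase inhibitor IBMX (0.5 mM), the glucocorticoid dexamethasone (1 μM) and 10% FCS to start differentiation. Beside KLF4 and KLF5, the factors were ATF2, ATF7, cJun, FOSL2, JunB, VDR and RXR. There was 1 library per factor, in 1 cell line at 1 time, so no replicate spread exists and no difference below could be tested between cultures. Per the labels, the KLF4 antibody was commercial and the KLF5 antibody was a gift from another laboratory; antibody, depth and factor cannot be told apart.

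Krüppel-like factors bind DNA through zinc fingers at their C-terminal end and recognise GC-rich and CACCC-type elements, so that members of the family can share target sites. In fat cell formation, KLF4 is known as an early activator of Cebpb, and KLF5 as a factor that C/EBPβ and C/EBPδ induce and that helps to switch on Pparg, the master regulator of adipocytes. Both factors are also known for overlapping work in embryonic stem cells. Genes near the regions were not analysed here, and no sequence is printed, because no genome of the build of these files, mm9, was used here.

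The share of sites with no other factor listed was low for KLF4 and for cJun, and high for KLF5 and for ATF2. Of the KLF4 list's 5875 sites, 298 were listed at the same coordinates for none of the other 8 factors. That is 5.07% (95% exact Clopper-Pearson interval 4.53 to 5.66). This and all confidence intervals below cover counting error only. KLF5 was alone at 4103 of 17120 sites, or 24.0% (23.3 to 24.6). The cJun list, of similar length to that of KLF4, had 367 of 6175 sites alone, or 5.94% (5.37 to 6.56), and its interval overlapped that of KLF4. The FOSL2 list was also of similar length, but had 1282 of 6284 sites alone, or 20.4% (19.4 to 21.4). ATF2 had the highest share, 28.1% (27.3 to 29.0), and the 7 lists other than KLF4 and KLF5 together had 16.3% of their entries alone. KLF5-alone intervals were the largest of the 9 single-factor classes and made up 27.3% of all intervals with a single factor. KLF4-alone intervals were the smallest class and made up 1.98%. The other lists at a KLF4 site include the longest of the 9, that of KLF5, and the part of list length in these shares was not tested.

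Sites with exactly 1 more factor lie just outside the rule. KLF4 had 525 such sites, and at 353 of them (67.2%) the second factor was KLF5. Of all 5875 KLF4 sites, 5077 were KLF5 sites too, which is a larger share than this 67.2%. The KLF5 list is the longest of the 9, and partner numbers were not adjusted for list length. VDR was the second factor at 51, JunB at 30, RXR at 29, ATF2 at 28, ATF7 at 22, and cJun and FOSL2 at 6 each. KLF5 had 2735 such sites, and no single partner was as frequent: RXR was the second factor at 629 (23.0%), ATF2 at 580, VDR at 542, KLF4 at 353, JunB at 285, ATF7 at 175, FOSL2 at 119 and cJun at 52. If the KLF5 list had not existed, 651 KLF4 sites would have counted as alone. Without the KLF4 list, 4456 KLF5 sites would have done so.

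The first measured comparison was the distance to hotspots, here the 5623 intervals listed for 5 or more of the 9 factors. Distances run from midpoint to midpoint, and 201 bp is the smallest gap between any pair of intervals. The set of hotspots was the same for every class, so these distances can be read side by side. The factors differ, however, in how many hotspots list them: KLF5 5257, KLF4 3529, and the others from 2611 for ATF7 to 4922 for RXR. The part of this in the distances was not tested. KLF4-alone intervals lay a median of 93.5 kb from the nearest hotspot (95% order-statistic interval 72.6 to 117). KLF5-alone intervals lay a median of 58.5 kb away (54.4 to 62.3). The quartiles ran from 26.6 to 287 kb for KLF4-alone and from 15.0 to 191 kb for KLF5-alone. The intervals of the medians did not overlap, and the KLF4-alone median was the larger one on 17 of 20 chromosomes. Leaving out each chromosome in turn kept the medians between 89.7 and 96.1 kb and between 56.5 and 60.9 kb.

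Among the other 7 single-factor classes, medians ran from 57.3 kb for RXR-alone to 85.6 kb for FOSL2-alone. KLF4-alone thus had the highest median of the 9, with an interval that reached down into the range of the other classes, and KLF5-alone stood next to RXR-alone at the near end. At long range the order was the same. A hotspot lay within 100 kb of 51.7% of KLF4-alone intervals (45.8 to 57.5) and of 61.9% of KLF5-alone intervals (60.4 to 63.4), against 56.3% of the 10647 intervals of the other 7 classes. No hotspot lay within 50 kb of 64.8% of KLF4-alone intervals, 53.2% of KLF5-alone intervals and 59.3% of the other 7 classes together.

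**Figure D1:**
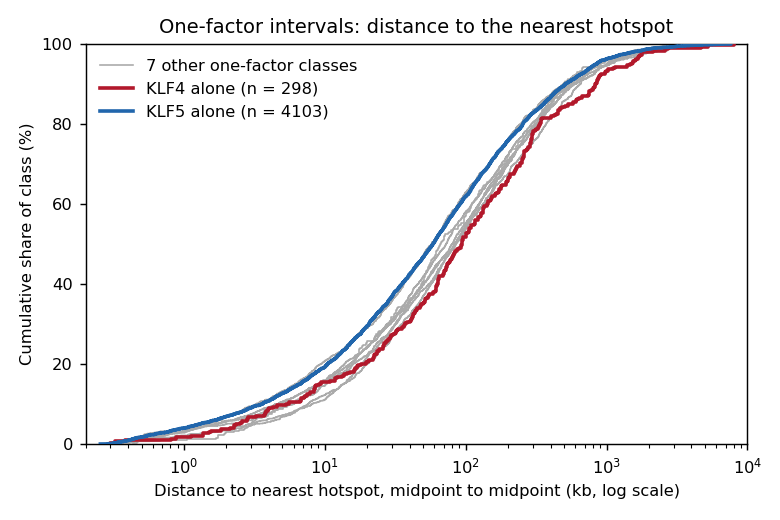
Cumulative share of each single-factor class (y axis, %) against the distance to the nearest hotspot (x axis, kb, log scale), with KLF4-alone in red, KLF5-alone in blue and the other 7 classes in grey. The blue curve reaches 50% near 58.5 kb and the red curve near 93.5 kb, and the red curve runs along the right edge of the grey ones beyond about 50 kb.

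At short range all shares were lower, and the intervals of KLF4-alone and KLF5-alone overlapped. A hotspot lay within 10 kb of 46 KLF4-alone intervals, or 15.4% (11.5 to 20.0), which is near the 15.3% of the other 7 classes. For KLF5-alone the number was 790, or 19.3% (18.1 to 20.5), and the intervals of both shares overlapped. Within 1 kb, a hotspot was found for 5 KLF4-alone intervals, or 1.68% (0.547 to 3.87), for 164 KLF5-alone intervals, or 4.00% (3.42 to 4.64), and for 2.92% of the other classes. The interval of KLF4-alone, which rests on 5 members, held the share of the other classes and not the KLF5-alone share, while the intervals of KLF4-alone and KLF5-alone overlapped between 3.42% and 3.87%.

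Median distances to hotspots were lower at KLF sites with more factors, at each step except from 5 to 6 factors in the KLF4 list (34.5 and 34.7 kb). In the KLF4 list the median was 93.5 kb for sites alone, 61.5 kb (51.8 to 70.6) with 1 more factor, 50.1 kb (40.0 to 61.4) with 2 more and 19.8 kb (16.04 to 24.5) with all 9 factors. In the KLF5 list it was 58.5 kb alone, 53.2 kb (49.6 to 59.2) with 1 more and 49.7 kb (45.6 to 53.2) with 2 more. Only the sites alone can be compared between both lists in this way. From 2 factors on the lists share sites, 353 of the 525 KLF4 sites with 2 factors and 5077 of all 5875 KLF4 sites being KLF5 sites too, so the nearness of those medians to each other is partly built in. The 353 intervals listed for KLF4 and KLF5 and nothing else had a median of 53.2 kb (42.3 to 66.4). Sites with 5 or more factors are hotspots themselves, and their distance is that to another hotspot.

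**Figure D2:**
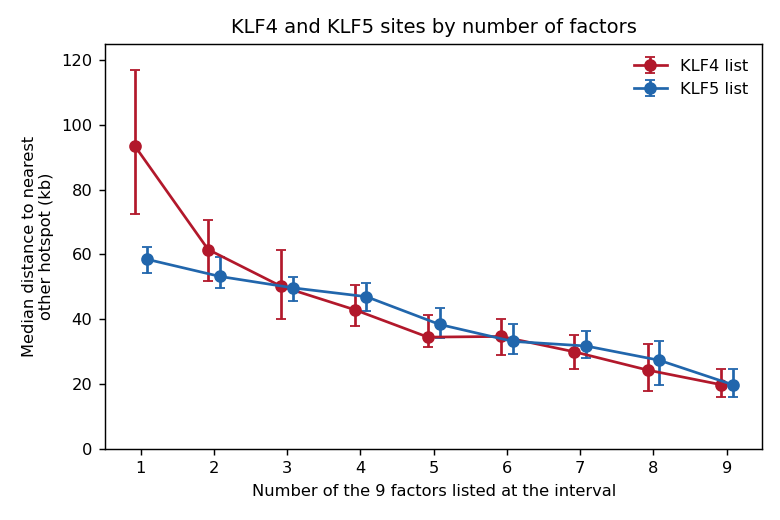
Median distance to the nearest other hotspot (y axis, kb) for sites of the KLF4 list (red) and the KLF5 list (blue), by the number of factors listed at the site (x axis), with 95% order-statistic intervals as bars. At 1 factor the medians are 93.5 and 58.5 kb and the bars do not meet, and from 2 factors on both lists share many of their sites, so those points are not independent.

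The next comparison was the distance to the other Krüppel-like factor. The KLF5 list is far longer than the KLF4 list, so each class was set against other single-factor classes measured to the same list. KLF4-alone intervals lay a median of 23.6 kb (18.2 to 30.7) from the nearest KLF5 site, within the 16.3 to 25.2 kb of the other 7 classes. A KLF5 site lay within 10 kb of 96 of them, or 32.2% (26.9 to 37.8), against 34.5% of the other classes. Within 1 kb the numbers were 21, or 7.05% (4.41 to 10.6), against 7.86%. Both shares of the other classes lay inside the KLF4-alone intervals, so no difference in nearness to KLF5 was detectable with 298 members. KLF5 intervals overlapped 5 KLF4-alone intervals (1.68%), and the closest midpoints were 325 bp apart.

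KLF5-alone intervals had a KLF4 site within 10 kb in 796 cases, or 19.4% (18.2 to 20.6). The other 7 classes together had 15.7%, and RXR-alone had the highest share among them, 18.4%. Within 1 kb the share was 4.41% (3.80 to 5.09), against 2.86%. The median distance was 58.5 kb (54.4 to 61.5), against 73.4 kb (70.1 to 76.7). KLF4 intervals overlapped 43 KLF5-alone intervals (1.05%). Most KLF4 sites are hotspots (60.1%), and of the KLF4 sites nearest to KLF5-alone intervals 60.5% were hotspots, so the distances of this class to KLF4 sites and to hotspots are not independent measures. For KLF4-alone, 21.8% of the nearest KLF5 sites were hotspots, against 30.7% of the KLF5 list.

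The nearest hotspot listed either factor about as often as hotspots did in general. It listed KLF4 for 61.7% of KLF4-alone intervals (56.0 to 67.3) and for 61.7% of KLF5-alone intervals, against 62.8% of all hotspots. It listed KLF5 for 91.9% (88.3 to 94.8) and 93.3%, against 93.5% of all hotspots.

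KLF4-alone intervals were found near each other more often than KLF5-alone intervals were, although they were far fewer. Within 1 kb of another member of the same class lay 22 KLF4-alone intervals, or 7.38% (4.68 to 10.96), and 142 KLF5-alone intervals, or 3.46% (2.92 to 4.07). Of the 14750 intervals of the other 8 single-factor classes, 13 (0.0881%) had a KLF4-alone interval that close, and 196 of 10945 (1.79%) had a KLF5-alone interval. The 22 KLF4-alone intervals formed 8 pairs and 2 groups of 3. Members of a group are not independent counts, so the confidence intervals of these same-class shares are too narrow. Such nearness was not particular to KLF4-alone: FOSL2-alone had 132 of 1282 intervals within 1 kb of its own class, or 10.3% (8.69 to 12.1). The remaining classes ran from 0% for cJun-alone to 3.79% for ATF2-alone. Joining members at up to 10 kb raised the grouped share to 9.73% for KLF4-alone and to 15.5% for KLF5-alone. The order of these 2 classes was thus reversed at that range, where FOSL2-alone had 26.7%. These shares also depend on class size, which differs between the classes, and they were not adjusted for it.

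Sites of the same factor were then counted whether alone or not. Another KLF4 site lay within 1 kb of 34 KLF4-alone intervals, or 11.4% (8.03 to 15.6), and of 3.29% of the intervals of the other 8 classes, a ratio of 3.46. For KLF5 the shares were 13.0% (12.0 to 14.1) and 7.84%, a ratio of 1.66. FOSL2 had a ratio of 3.60, close to that of KLF4, and the other 6 factors had ratios between 0.709 for JunB and 1.71 for RXR. FOSL2 is an AP-1 protein of the Fos family. Of the 34 KLF4-alone intervals, 22 were those near another KLF4-alone interval, in the 10 groups given above. The confidence interval of the 11.4% is therefore too narrow as well. At 10 kb the shares for KLF4 were 25.2% (20.3 to 30.5) and 16.7%, closer in proportion than at 1 kb but with 16.7% still outside the interval. They were 44.7% and 34.5% for KLF5, 37.3% and 26.5% for RXR, and 37.7% and 18.4% for FOSL2. For these 3 factors, too, the shares were closer in proportion than at 1 kb.

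**Figure D3:**
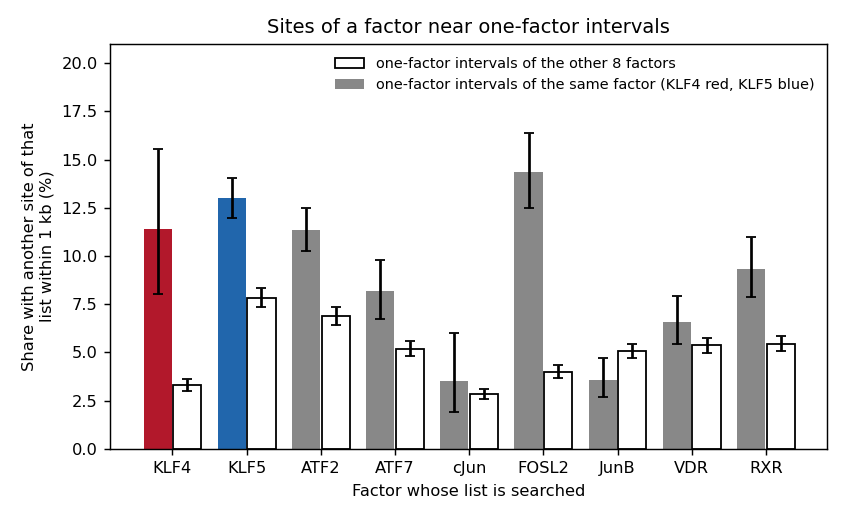
Share of single-factor intervals (y axis, %) that had another site of the named list (x axis) within 1 kb, for intervals of that factor alone (filled bars, KLF4 red and KLF5 blue) and for single-factor intervals of the other 8 factors (open bars), with 95% exact intervals. The filled bar is 3.46 times the open bar for KLF4, 1.66 times for KLF5 and 3.60 times for FOSL2.

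The largest groups of members joined at up to 10 kb are given as examples. For KLF4-alone they had 3 members. On chromosome 11, 3 overlapping intervals covered 879 bp from 70460436 to 70461314 (mm9, 1-based), 449 kb from a hotspot and 179 kb from a KLF5 site, with 1 further interval within 50 kb. On chromosome 6, 3 covered 1749 bp from 51405067 to 51406815, at least 116 kb from a hotspot and 77.1 kb from a KLF5 site. On chromosome 2, 3 covered 8218 bp from 37278423 to 37286640, at least 861 kb from a hotspot and 793 kb from a KLF5 site, with no other interval within 50 kb. For KLF5-alone, 5 groups had 4 members. They lay on chromosomes 2 (60710176 to 60721426), 3 (90410022 to 90424617), 12 (110919164 to 110933274), 18 (60773072 to 60790561) and 19 (38030909 to 38034874). Every member of these 5 groups had a hotspot at 32.6 kb or nearer and from 7 to 16 intervals within 50 kb, the rest of its group included. In these 8 groups, the KLF4-alone members were farther from hotspots than the KLF5-alone members. The groups were picked by size, and the 25 KLF5-alone groups of 3 were not looked at, so this does not compare the classes.

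Neighbours of any kind were about as near for both classes. The nearest interval lay a median of 6.66 kb (4.92 to 9.01) from KLF4-alone and 5.84 kb (5.45 to 6.26) from KLF5-alone intervals. That neighbour had a single factor for 47.0% and 41.0%, and was a hotspot for 10.4% and 18.1%. Of all 34724 intervals, 43.3% had a single factor and 5623 were hotspots. No interval at all lay within 100 kb of 19 KLF4-alone (6.38%) and 153 KLF5-alone intervals (3.73%). An interval lay that near for 93.6% and 96.3% of these classes, and for 95.0% of the other 7 classes together.

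Members at the extremes show the spread. The KLF4-alone intervals nearest to a hotspot lay 302 bp from one (chromosome 16, 3116411 to 3116810), 325 bp (chromosome 18, 3004095 to 3004494) and 384 bp (chromosome 18, 46879073 to 46879472). The nearest KLF5-alone intervals lay 255 bp from one (chromosome 19, 57313642 to 57314041), 269 bp (chromosome 13, 60944325 to 60944724) and 290 bp (chromosome 3, 121617700 to 121618099). For all 3 of these KLF5-alone intervals, the nearest KLF4 site lay at the same distance as the hotspot. The KLF4-alone intervals farthest from a hotspot were all on chromosome X, the farthest being 89924698 to 89925097 at 7958 kb. The farthest KLF5-alone interval was on the same chromosome, 90252038 to 90252437 at 7631 kb, and was the nearest KLF5 site to that KLF4-alone interval, 327 kb away.

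The row order of the files was examined because it is the one other property they hold. What the order stands for is not stated in the labels or files. It was not by position, and the 5077 intervals listed for both KLF4 and KLF5 came in the same order in both files. Rows near the top had more factors: the mean number was 6.87 in the first 10% of KLF4 rows and 2.50 in the last 10%, and 5.74 and 1.45 in the KLF5 list. The share of KLF4 rows that were alone was 0.850% (0.277 to 1.97) in the first 10% and 26.7% (23.2 to 30.5) in the last 10%. For KLF5 rows it was 4.21% (3.30 to 5.27) and 69.5% (67.2 to 71.6). In each of the 10 parts the KLF5 share was the higher one. The other 7 lists went the same way, so this rise was not particular to the Krüppel-like factors. Their shares alone ran from 0.162% for cJun to 7.10% for ATF2 in the first 10% of rows. In the last 10% they ran from 37.1% for cJun to 73.7% for ATF2.

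Members lay late in their own lists, KLF4-alone at a median of 91.5% of the rows (88.9 to 93.6) and KLF5-alone at 79.6% (78.5 to 80.3). The lists differ in length, so positions were also counted as the percentage of the shared 5077 intervals that came before a member. On that common scale the classes nearly met: the median was 95.1% (93.0 to 96.5) for KLF4-alone and 95.8% (95.4 to 96.1) for KLF5-alone. The last 10% of the scale held 187 KLF4-alone intervals (62.8%) and 2747 KLF5-alone intervals (67.0%). The first 50% held 26 (8.72%) and 249 (6.07%). The interval of the KLF4-alone median held the KLF5-alone median on the common scale, and did not do so for positions within each list.

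**Figure D4:**
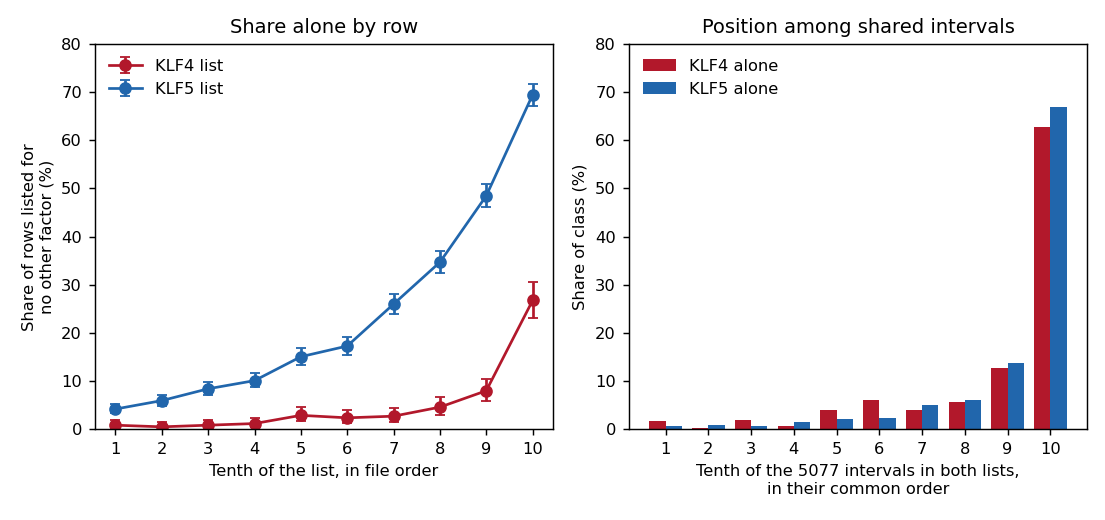
Left, share of rows listed for no other factor (y axis, %, bars are 95% exact intervals) in each 10% of the KLF4 (red) and KLF5 (blue) lists in file order; right, share of each class (y axis, %) by position among the 5077 intervals in both lists. On the left KLF5 rises to 69.5% and KLF4 to 26.7%, and on the right the last bars are 62.8% for KLF4-alone and 67.0% for KLF5-alone.

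The KLF4-alone median distance to hotspots was the larger one in both parts of that scale, but less clearly in the later part. Before 90% of the shared intervals, the median was 117 kb (82.0 to 178) for 111 KLF4-alone and 60.7 kb (54.0 to 67.2) for 1356 KLF5-alone intervals. After 90% it was 75.6 kb (61.5 to 109) for 187 KLF4-alone and 57.2 kb (52.2 to 62.3) for 2747 KLF5-alone intervals, where the intervals of the medians overlapped slightly.

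A few members stood at the very top of the files. The first KLF4-alone interval was row 2 of its list, on chromosome 2 from 77789475 to 77789874, 24.2 kb from a hotspot. The next were row 11 (chromosome 6, 51121018 to 51121417) and row 288 (chromosome 13, 111734264 to 111734663). The first KLF5-alone intervals were rows 2, 3 and 6, all on chromosome 10 (117106669 to 117107068, 117148556 to 117148955 and 116968734 to 116969133). All 3 lay in the same stretch, from 116968734 to 117148955, and are not separate cases. They lay 51.8, 9.94 and 15.7 kb from a hotspot and at least 80.5 kb from a KLF4 site.

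Shares by chromosome rest on far fewer sites for KLF4 than for KLF5. The share of KLF4 sites that were alone ran from 2.97% on chromosome 15 (8 of 269) to 8.05% on chromosome X (7 of 87). The interval of every chromosome held the 5.07% of the whole list, so no departure of a chromosome was detectable with these numbers, which does not show that the chromosomes were alike. The share of KLF5 sites that were alone ran from 19.1% on chromosome 19 (16.5 to 22.0) to 32.1% on chromosome 7 (28.8 to 35.6). It was above the list's 24.0%, beyond its interval, on 4 chromosomes, namely 7, 9, 11 and X (27.6% to 32.1%). In the same way it was below 24.0% on 4, namely 1, 6, 16 and 19 (19.1% to 20.7%). The other 7 lists together had 16.3% of their entries alone. On chromosomes 7, 9, 11 and X they had 19.3%, 17.3%, 19.5% and 24.7%. On 1, 6, 16 and 19 they had 14.3%, 14.9%, 15.8% and 14.0%, so these directions were not particular to KLF5. The 4 chromosomes with high KLF5 shares were also the 4 with the lowest share of intervals that were hotspots, from 7.46% on X to 13.3% on chromosome 9. Chromosomes 19, 6 and 16 had the highest, from 18.6% to 20.8%, and chromosome 1 had 17.3%. A KLF5-alone interval cannot be a hotspot, and 93.5% of all hotspots were KLF5 sites. Both shares are therefore partly linked by definition, and their relation carries no support. How much of the KLF5 shares this link covers was not tested.

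**Figure D5:**
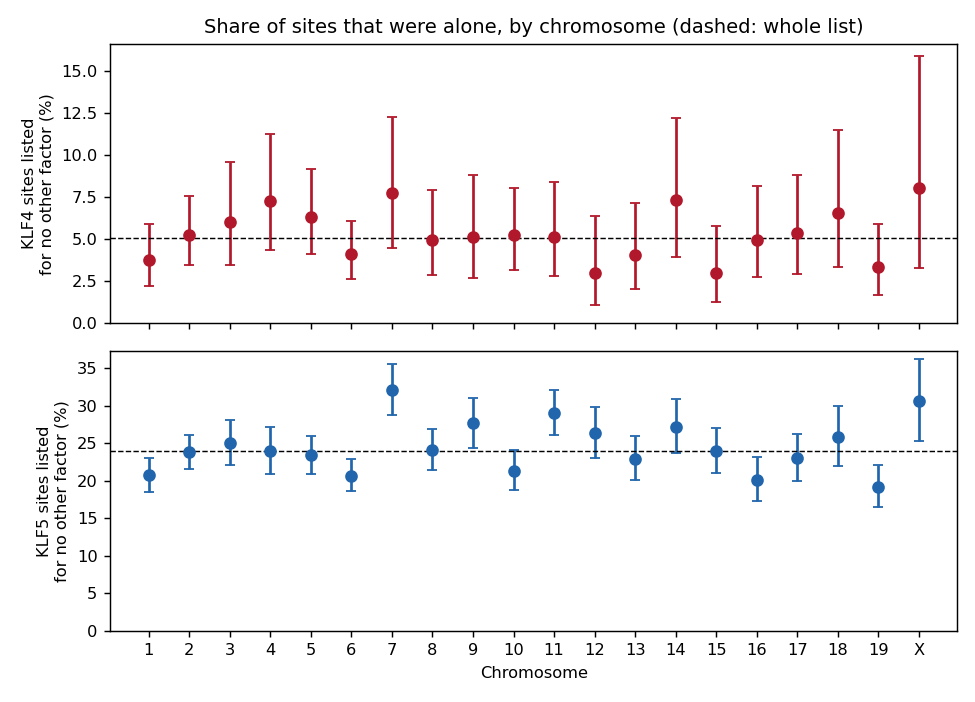
Share of KLF4 sites (top, red) and KLF5 sites (bottom, blue) listed for no other factor (y axes, %) on each chromosome (x axis), with 95% exact intervals and the share in the whole list as a dashed line. All KLF4 intervals hold the dashed line at 5.07%, and KLF5 lies highest on chromosome 7 (32.1%) and lowest on chromosome 19 (19.1%).

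Chromosome 10 was looked at by itself because earlier work on these data had found dense blocks of sites there. This chromosome held 19 KLF4-alone intervals, or 6.38% (3.88 to 9.78) of the class, and 200 KLF5-alone intervals, or 4.87% (4.24 to 5.58). It held 6.16% of all KLF4 sites and 5.47% of all KLF5 sites, and 6.98% of all intervals. The interval of each class held the share of its own list. Chromosome X held 2.35% of KLF4-alone and 2.14% of KLF5-alone intervals, and its KLF5-alone intervals lay a median of 761 kb from a hotspot, farther than on any other chromosome.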

How the data were processed

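The submitters deposited 1 interval list per factor with 3 columns (chromosome, start and end) and no score, count or control value. The tools named in the submitters' processing notes are Bowtie, HOMER and FastQC, and the build is mm9. Their versions and roles, the peak threshold and the way common intervals were made are not stated there. Depth is therefore unknown, sites cannot be ranked by signal, and a stricter peak threshold could not be tried. All intervals were 400 bp long.

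Of 30 labelled samples, 9 were used and 21 were not analysed here. Rows on chromosome Y were left out (1 KLF4 row). Intervals were matched by identical coordinates. The members, hotspots and distances were chosen with earlier results of these data known. Regions named were the first 3 rows, the 3 nearest to and farthest from a hotspot, and the largest groups joined at 10 kb, in each class. Shares carry exact Clopper-Pearson and medians order-statistic 95% intervals. Python 3.11.15, numpy 2.4.6, scipy 1.17.1, pandas 2.3.3 and matplotlib 3.10.9 were used. Classes and distances were checked on simulated lists.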

Additional observations from a re-analysis of the deposited data

How the results depend on the processing

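Of 310 alternative values for 12 results, 285 stayed within the 95% interval of the reported value or, for numbers of members, within 1.5 times of it. Among them were all 238 values with a chromosome left out. No chromosome held more than 9.06% of KLF4-alone or 8.34% of KLF5-alone intervals, so those 238 values had little room to move. All 25 values that moved came from the other changes. The KLF4-alone number rose to 651 without the KLF5 list. With hotspots at 4 or more lists, the median distance was 62.3 kb for KLF4-alone and 34.1 kb for KLF5-alone, and the share within 10 kb was 21.1% and 26.3%. At 6 or more lists the medians were 148 and 101 kb and the shares 9.40% and 13.2%. KLF4-alone was the farther class at each threshold. Requiring no interval of another list within 1 kb lowered the share of KLF4-alone within 10 kb of a KLF5 site to 26.8%. For KLF5-alone it moved the median hotspot distance to 65.2 kb, the share within 10 kb of a hotspot to 15.5% and of a KLF4 site to 15.3%; the comparison classes were not restricted in the same way. Other distances give other quantities: at 5, 50 and 100 kb the hotspot shares were 9.73%, 35.2% and 51.7% for KLF4-alone and 12.7%, 46.8% and 61.9% for KLF5-alone. The shares near the other KLF were then 22.8%, 66.1% and 80.5% for KLF4-alone and 13.1%, 46.6% and 62.7% for KLF5-alone. Counting each group of members joined at 1 kb once, a choice made after the data were seen, gave medians of 93.7 and 58.6 kb. Read depth, which the files lack, and the 298 KLF4-alone members limit the precision.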
